A study of Mus musculus with 6 samples.

Results

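Antisense and processed transcript genes are loci whose RNAs were annotated without a protein product. An antisense gene lies on the strand opposite another gene or runs across it, and a processed transcript is a spliced or polyadenylated RNA without an open reading frame. Some of these RNAs act where they are made, by silencing a neighbour or by carrying small RNAs in their introns, and for most no function is known. Testis transcribes an unusually large number of them, above all in meiotic spermatocytes and in the haploid round spermatids that follow.

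Of 26743 genes in the deposited table, 1235 carried one of these biotypes (1026 antisense and 209 processed_transcript), and 201 of them reached a sum of at least 200 raw counts over the 6 mice. These 201 members were 153 antisense and 48 processed_transcript genes. The sum over all mice chose them, with no use of the difference between genotypes, and no member was a protein-coding gene of the 1700 or 49 Rik series by the table's biotype. The counts were raw, so deeper libraries weighed more in the sum. The deepest library was that of WT mouse 1 and the shallowest that of Trf2-/- mouse 3. The sums of the members ran from 200 to 39839 counts with a median of 605. At the limit, Gm13375 (200 counts), Gm16599 (205) and RP23-193A2.2 (205) lay just inside, and Gm15569 (199), 1700095B22Rik (198) and 4930538E20Rik (198) just outside. All 201 members passed the filter on low counts and were tested.

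Total RNA came from whole testes of 3 WT and 3 Trf2-/- males at 21 days of age, each mouse giving 1 strand-specific library depleted of ribosomal RNA. Trf2, listed as Tbpl1, encodes a relative of the TATA-binding protein, and males without it do not complete spermatid development. At 21 days round spermatids of the first wave have appeared. The labels give no strain and do not say which part of the gene was removed. The comparison asked which of these RNAs differ in level when Trf2 is missing. The counts of Tbpl1 were 8840, 7391 and 6119 in WT and 1586, 1500 and 882 in Trf2-/- mice, so every Trf2-/- library was low in the targeted gene, and Slc2a12, which overlaps it on the other strand, had a log2 fold change of 0.39. Total counts were 21582123 to 29859347 for the WT and 15187062 to 24530489 for the Trf2-/- libraries, with Trf2-/- mouse 3 the shallowest. Levels are given as CPM, counts per 1000000 reads of the library size after TMM scaling, and 3 counts corresponded to 0.105 to 0.190 CPM, a limit that covers counting error only. In whole testis, fewer cells of a type and less RNA per cell cannot be told apart.

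Marker lists of germ and somatic cells were detected in every library, and the spermatid lists moved with genotype. Of 10 tested round spermatid markers 9 were lower in Trf2-/- testis (median log2 fold change -1.49), with a summed level of 413 to 438 CPM in WT and 161 to 261 CPM in Trf2-/- mice and no marker at 0 in a whole genotype. The lowest sum, 161 CPM, was that of Trf2-/- mouse 3, against 237 and 261 CPM in mice 1 and 2. Spata16 alone gave 270 to 292 CPM of this sum in WT and 106 to 173 CPM in Trf2-/- mice. Of the elongating spermatid markers, 6 of 6 tested were lower. The other 3 of the 9 in the table (Smcp, Prm3 and Prm2) had too few counts to be tested, with 0 to 4 counts in each WT mouse and 0 in each Trf2-/- mouse. Odf2 alone gave 1027 to 1056 CPM of the summed 1051 to 1081 CPM of this list in WT. Whether elongating cells were present at 21 days was not tested. Pachytene spermatocyte markers were split, 5 lower and 3 higher of 10. Sertoli markers (0 lower and 3 higher of 9), spermatogonial markers (0 lower and 1 higher of 10), and Leydig and peritubular markers (0 lower and 1 higher in each list) had no lower gene, also at an unadjusted p under 0.05 (0 in each list) and with DESeq2 (0 in each list). Macrophage markers were 5 higher and 1 lower of 10, with 459 CPM in Trf2-/- mouse 1 against 236 to 288 CPM in the other 5 mice. Of 6 T cell markers 3 were tested with edgeR and 0 passed, 0 also at an unadjusted p under 0.05 and 0 with DESeq2, at 5.53 to 8.73 CPM in all.

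Sequences are shown for 6 members that the results turn on. They are the member with the largest decrease, a member that fell inside an intron while its host gene did not, a decreased member with TATA motifs, a member that shares its promoter region with a protein-coding gene, the member with the highest level, and the member that rose most. Each is 300 bases of the genome build NCBIM37 (mm9), from 250 bases before to 50 bases from the annotated start on, 5′ to 3′ on the member's strand. Capitals mark the 4 motifs searched on both strands. These were TATAAA as the TATA box, TGACGTCA as the cyclic AMP response element, GGGCGG as the GC box and CCAAT as the CCAAT box. A match on the other strand reads TTTATA for the TATA box, CCGCCC for the GC box and ATTGG for the CCAAT box, and the response element reads alike on both. The windows are chr2:144156945-144157244 (plus) for 1700108N11Rik, chr4:150750329-150750628 (plus) for 4930589P08Rik, chr16:66657113-66657412 (plus) for 1700010K23Rik, chr11:59761595-59761894 (minus) for 1700013G23Rik, chr4:14856805-14857104 (plus) for Gm11837 and chrX:93435031-93435330 (plus) for F630028O10Rik.
1700108N11Rik: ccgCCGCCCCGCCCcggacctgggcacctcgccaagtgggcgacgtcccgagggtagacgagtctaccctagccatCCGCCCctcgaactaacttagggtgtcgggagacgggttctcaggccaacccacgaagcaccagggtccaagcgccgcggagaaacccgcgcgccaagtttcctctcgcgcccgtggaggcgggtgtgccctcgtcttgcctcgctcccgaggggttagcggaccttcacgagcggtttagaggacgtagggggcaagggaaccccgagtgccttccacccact
4930589P08Rik: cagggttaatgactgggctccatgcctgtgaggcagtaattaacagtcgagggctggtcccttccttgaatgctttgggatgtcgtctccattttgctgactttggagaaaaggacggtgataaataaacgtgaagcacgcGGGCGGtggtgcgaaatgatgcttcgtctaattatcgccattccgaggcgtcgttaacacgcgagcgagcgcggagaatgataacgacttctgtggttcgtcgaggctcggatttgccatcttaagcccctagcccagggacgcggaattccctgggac
1700010K23Rik: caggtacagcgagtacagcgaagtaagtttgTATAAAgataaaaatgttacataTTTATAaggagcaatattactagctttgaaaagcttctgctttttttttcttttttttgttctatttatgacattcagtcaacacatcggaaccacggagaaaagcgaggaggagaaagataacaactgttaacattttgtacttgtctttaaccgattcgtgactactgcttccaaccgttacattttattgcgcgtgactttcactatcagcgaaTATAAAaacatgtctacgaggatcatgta
1700013G23Rik: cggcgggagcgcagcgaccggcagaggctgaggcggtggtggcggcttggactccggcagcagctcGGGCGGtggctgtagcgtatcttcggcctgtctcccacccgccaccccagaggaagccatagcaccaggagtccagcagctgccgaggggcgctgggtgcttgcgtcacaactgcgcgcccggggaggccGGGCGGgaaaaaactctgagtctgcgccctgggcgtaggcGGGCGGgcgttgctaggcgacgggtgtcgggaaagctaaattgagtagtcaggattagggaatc
Gm11837: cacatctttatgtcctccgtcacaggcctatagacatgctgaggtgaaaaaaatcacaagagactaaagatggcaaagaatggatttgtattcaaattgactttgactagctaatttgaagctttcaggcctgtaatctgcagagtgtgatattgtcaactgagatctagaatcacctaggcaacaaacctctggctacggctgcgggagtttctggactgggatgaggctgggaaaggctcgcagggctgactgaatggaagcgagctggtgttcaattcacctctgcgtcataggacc
F630028O10Rik: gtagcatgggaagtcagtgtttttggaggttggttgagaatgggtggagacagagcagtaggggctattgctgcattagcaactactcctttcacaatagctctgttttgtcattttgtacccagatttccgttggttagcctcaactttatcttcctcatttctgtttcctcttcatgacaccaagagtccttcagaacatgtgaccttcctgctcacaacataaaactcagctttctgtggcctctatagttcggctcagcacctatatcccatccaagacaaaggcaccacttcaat

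The promoters of the members that fell held these letters at shares within 3 percentage points of all tested genes, whichever motif was counted. A strand, and so a start, was known for 187 members. TATAAA was present in 4 of 68 lower members (5.88%), in 11 of 119 other members (9.24%) and in 8.68% of the windows of 16873 tested genes. TGACGTCA was found in 0 of 68 lower members, 3 of 119 other members and 2.84% of all. GGGCGG was found in 52.9%, 46.2% and 55.0% of them, and CCAAT in 38.2%, 39.5% and 37.8%. The median GC content was 59.8% in lower members, 57.3% in other members and 58.7% in all tested genes. Among the windows printed, 1700010K23Rik held TATAAA on both strands at 35.0% GC, 1700013G23Rik held GGGCGG at 67.7% GC, and F630028O10Rik and Gm11837 held none of the 4 motifs. The TATAAA matches of 1700010K23Rik lie near the upstream end of its window and after the annotated start, with none just before the start. A match is a description of the letters and does not show that a factor binds.

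Of the 201 members, 72 were lower and 6 were higher in Trf2-/- testis, and 123 did not pass an adjusted p of 0.05 (edgeR's quasi-likelihood test with Benjamini-Hochberg adjustment over 16924 tested genes). Over all tested genes 20.2% were lower and 11.2% higher. A decrease of at least 2-fold was called for 23 members (11.4%) against 4.3% of all tested genes, and an increase of that size for 1 member against 0.609%. The median log2 fold change was -0.25 over the members and 0.04 over all tested genes. Every Trf2-/- mouse lay below every WT mouse for 88 members (26.8% of all tested genes) and above for 28 (22.3% of all tested genes). Scaling by library size alone gave 64 lower and 20 higher members in place of 72 and 6. The members held 0.247% to 0.263% of all counts in the WT libraries and 0.206% to 0.220% in the Trf2-/- libraries, 2 ranges that do not overlap.

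By the median ratio, the decrease was deepest in Trf2-/- mouse 3. Relative to the WT mean, the members had median log2 ratios of -0.22, -0.22 and -0.34 in Trf2-/- mice 1, 2 and 3, and of 0.05, -0.02 and -0.03 in the WT mice. For the 72 lower members alone they were -0.81, -0.67 and -1.05. Mouse 3 was the lowest Trf2-/- mouse in 61 of the 72, and it also had the lowest summed round spermatid markers. The part of those cells in the decrease was not tested. Without mouse 3 the fit gave 64 lower and 6 higher members, 20 of them at least 2-fold lower and 1 at least 2-fold higher.

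**Figure D1:**
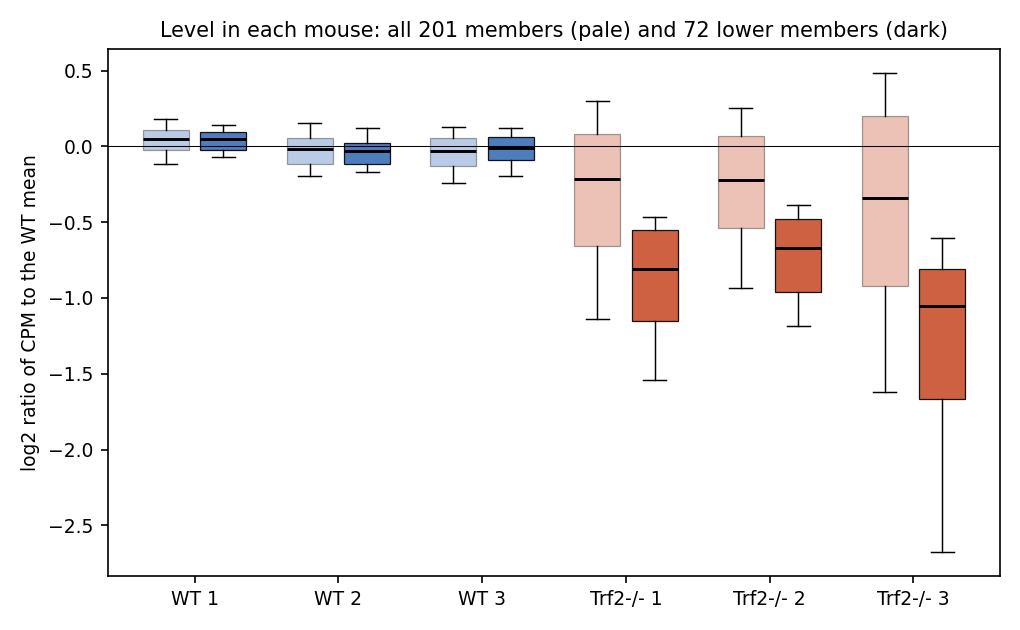
Log2 ratio of each member's CPM to its WT mean (vertical axis) in each of the 6 mice (horizontal axis), for all 201 members (pale boxes) and the 72 lower members (dark boxes). Boxes span the quartiles with the median as a line, and whiskers reach the 10th and 90th percentiles. The medians of the lower members lie at -0.81, -0.67 and -1.05 in Trf2-/- mice 1, 2 and 3.

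1700108N11Rik (ENSMUSG00000084837) had the largest decrease. This antisense gene of 2 exons lies on the plus strand of chromosome 2 at 144157195-144158375, across the start of Ovol2, a zinc finger transcription factor gene of the minus strand. Its counts were 260, 227 and 194 in WT and 32, 51 and 16 in Trf2-/- mice. All WT mice were far above all Trf2-/- mice, at 9.02 ± 0.308 against 1.49 ± 0.618 CPM (SD, n = 3 mice each), or -2.56 as log2 fold change (SE 0.23, adjusted p = 0.000296 from edgeR). Ovol2 moved the same way, from 27.6 ± 2.17 to 6.89 ± 2.65 CPM (SD, n = 3 each), or -1.97 as log2 fold change (SE 0.22, adjusted p = 0.000550 from edgeR). The pair shares 688 bases, 359 of them exonic in both. The log2 ratio of the antisense count to the Ovol2 count was -1.70, -1.54 and -1.61 in WT and -2.66, -2.01 and -1.93 in Trf2-/- mice, so the antisense RNA was lower relative to Ovol2 in each Trf2-/- mouse than in any WT mouse (exact permutation p = 0.1, two-sided, the smallest that 3 against 3 allows).

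Other large decreases lay inside genes that did not pass the test. 4930589P08Rik (chr4:150750579-150753691, plus) sits in an intron of Camta1, which encodes a calmodulin-binding transcription activator and runs on the minus strand. It had 678, 461 and 461 counts in WT and 150, 146 and 38 in Trf2-/- mice, with no overlap (21.1 ± 3.10 against 4.87 ± 2.14 CPM, SD, n = 3 each). The log2 fold change was -2.07 (SE 0.26, adjusted p = 0.000830 from edgeR), whereas that of Camta1 was 0.08 (SE 0.07, adjusted p = 0.437 from edgeR). 1700019G24Rik, inside the dynein intermediate chain gene Dync1i1 with no shared exonic base, had 376, 326 and 353 counts in WT and 108, 148 and 41 in Trf2-/- mice. Its log2 fold change was -1.65 and that of Dync1i1 was 0.12. In both loci the member fell in every Trf2-/- mouse below every WT mouse, and the host gene did not pass the test.

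Other members fell where exons overlapped. Gm14873, opposite the FGF receptor adaptor gene Frs3 with 509 shared exonic bases, had 379, 329 and 280 counts in WT and 90, 98 and 28 in Trf2-/- mice (3.99-fold lower, SE of the log2 fold change 0.22, adjusted p = 0.000557 from edgeR). The log2 fold change of Frs3 was -0.17 (adjusted p = 0.0697 from edgeR). 1700010K23Rik, a processed_transcript member of 376 exonic bases opposite the cell adhesion gene Cadm2, had 403, 282 and 267 counts in WT and 88, 110 and 22 in Trf2-/- mice. It had more counts than its partner in every mouse, since Cadm2 had 13 to 29. Its log2 fold change was -1.92 (SE 0.30, adjusted p = 0.00180 from edgeR), and that of Cadm2 was -0.61 (SE 0.27, adjusted p = 0.119 from edgeR).

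Lower-level members were among the largest decreases too. 1700112M01Rik, opposite the deubiquitinase gene Usp46, had 86, 77 and 83 counts in WT and 16, 31 and 5 in Trf2-/- mice, a log2 fold change of -2.04 (SE 0.36). Usp46 was also lower, by less (log2 fold change -0.40, SE 0.06, adjusted p = 0.00197 from edgeR). Gm13205, opposite the zinc finger gene Casz1, had 82, 59 and 60 counts in WT and 17, 22 and 4 in Trf2-/- mice, a log2 fold change of -2.01 (SE 0.32), whereas Casz1 had -0.11 (SE 0.09). 4930588K23Rik overlaps no other gene and had 80, 60 and 37 counts in WT and 15, 14 and 2 in Trf2-/- mice, a log2 fold change of -2.27 (SE 0.37). By the choice of named members, none of these 3 overlapped between genotypes. Their levels in Trf2-/- mouse 3, 2 to 5 counts, were near the limit of 3 counts.

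Gm15634 was the only one of the 10 largest decreases whose overlapping genes all lie on the same strand. It had 82, 74 and 34 counts in WT and 23, 25 and 11 in Trf2-/- mice (log2 fold change -1.43, SE 0.28). It lies within 4933411K20Rik, which fell from 584 ± 14.9 to 325 ± 45.0 CPM (SD, n = 3 each, log2 fold change -0.84, SE 0.09), and reads from unspliced RNA of that gene cannot be told apart from its own. 4930486F22Rik, in the synapsin gene Syn3, had 97, 77 and 77 counts in WT and 38, 36 and 8 in Trf2-/- mice (log2 fold change -1.42, SE 0.30). Besides Syn3 on the opposite strand, 4930486F22Rik overlaps a gene on its own strand. Whether RNA of that gene added to its counts was not tested. Gm15990, a second antisense member inside Syn3, had a log2 fold change of -1.08 (SE 0.20), and Syn3 itself had 0.06 (SE 0.19, adjusted p = 0.825 from edgeR). Both RNAs inside Syn3 were lower in every Trf2-/- mouse while the counts of Syn3, 47 to 60 in WT and 34 to 66 in Trf2-/- mice, overlapped.

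**Figure D2:**
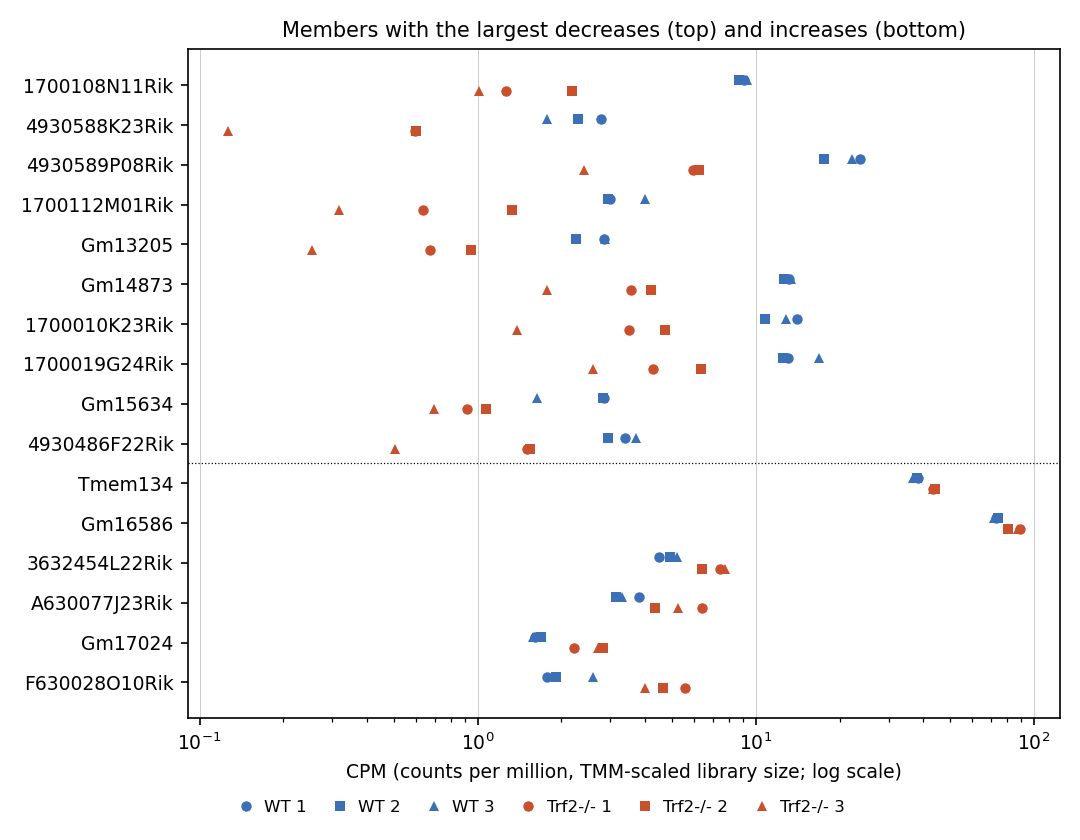
CPM of each mouse (horizontal axis, log scale) for the 10 members with the largest decreases and the 6 members with an increase (vertical axis), WT in blue and Trf2-/- in orange, with a marker shape for each replicate number. The members shown were chosen without overlap between genotypes, and Trf2-/- mouse 3 is the lowest mouse in all 10 decreases.

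The remaining members with a decrease of at least 2-fold began with Gm17089, opposite the transcription factor gene Etv6, at a log2 fold change of -1.35, and ended with 4932702P03Rik at 2.01-fold lower. Gm12462, in the B cell factor gene Pax5, had the most counts of the 23, with 2241, 1960 and 1553 counts in WT and 835, 910 and 390 in Trf2-/- mice. It fell from 75.9 ± 1.93 to 32.3 ± 7.22 CPM (SD, n = 3 each), or -1.22 as log2 fold change (SE 0.13, adjusted p = 0.000505 from edgeR), and Pax5 had too few counts to be tested. 4932702P03Rik, opposite the GABA-degrading enzyme gene Aldh5a1, fell from 62.8 ± 3.64 to 31.1 ± 6.03 CPM (SD, n = 3 each), and Aldh5a1 rose by 0.47 on the log2 scale (adjusted p = 0.0186 from edgeR). Gm12462, Gm17089 and 4932702P03Rik were singled out after their values were seen.

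A pair of members at the potassium channel subunit gene Kcnmb4 fell together with it. Kcnmb4 had 794, 678 and 537 counts in WT and 197, 236 and 130 in Trf2-/- mice, -1.60 as log2 fold change (SE 0.11, adjusted p = 0.000153 from edgeR). 4933400F03Rik, which crosses its start, had 199, 154 and 122 counts in WT and 54, 80 and 48 in Trf2-/- mice (log2 fold change -1.13, SE 0.19). 1700058G18Rik, at its other end, had 1122, 1120 and 853 counts in WT and 586, 616 and 243 in Trf2-/- mice (log2 fold change -0.90, SE 0.16). Relative to Kcnmb4 both were higher in each Trf2-/- mouse than in any WT mouse, with log2 ratios of 1700058G18Rik of 0.50, 0.72 and 0.67 in WT and 1.57, 1.38 and 0.90 in Trf2-/- mice (exact permutation p = 0.1, two-sided). By fitted change both RNAs fell by less than the gene they oppose, whereas at Ovol2 the antisense RNA fell by more. These 2 members were singled out because they share a partner.

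Increases were few and mostly small. F630028O10Rik on the X chromosome (chrX:93435281-93438975, plus) was the only member with an increase of at least 2-fold. It had 51, 50 and 54 counts in WT and 140, 108 and 63 in Trf2-/- mice, and rose from 2.09 ± 0.435 to 4.72 ± 0.790 CPM (SD, n = 3 each), or 1.20 as log2 fold change (SE 0.20, adjusted p = 0.00240 from edgeR). Its order among the Trf2-/- mice, 5.55, 4.63 and 3.98 CPM, had mouse 1 highest, as the summed macrophage markers did, and that relation was not tested. Gm17024 had 46, 44 and 33 counts in WT and 56, 66 and 43 in Trf2-/- mice (log2 fold change 0.66, SE 0.18) and lies on the same strand inside Ifrd1, which rose by 0.29 on the log2 scale. Reads from unspliced RNA of Ifrd1 cannot be told apart from those of Gm17024. A630077J23Rik had 109, 82 and 69 counts in WT and 161, 101 and 83 in Trf2-/- mice (log2 fold change 0.64, SE 0.18). In CPM neither overlapped between genotypes, as their choice required.

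3632454L22Rik, also on the X chromosome, had 129, 128 and 109 counts in WT and 187, 149 and 123 in Trf2-/- mice (log2 fold change 0.56, SE 0.13). It overlaps the end of Zmat1 on the same strand, which rose by 0.41 on the log2 scale. RNA of Zmat1 that runs through the shared span cannot be told apart from that of 3632454L22Rik. Gm16586, at the gene of the nuclear RNA-binding protein Hnrnpu, rose from 73.1 ± 1.44 to 85.9 ± 4.43 CPM (SD, n = 3 each, log2 fold change 0.23, SE 0.05), and Tmem134 from 37.7 ± 0.793 to 43.5 ± 0.403 CPM (SD, n = 3 each, log2 fold change 0.21, SE 0.05). Whether RNA of Hnrnpu added to the counts of Gm16586 was not tested. Tmem134 is a membrane protein gene, protein-coding in RefSeq. Only F630028O10Rik and Gm16586 passed the adjusted p of 0.05 in every alternative run, and the number of higher members was 3 without WT mouse 2 and also 3 without WT mouse 3.

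The most abundant members, ranked by mean CPM per kilobase of exon, included both changed and unchanged RNAs. Gm11837 (chr4:14857055-14880177, plus, 7 exons), protein-coding in RefSeq, had the highest level at 260 CPM per kilobase, with 9240, 8329 and 6602 counts in WT and 5509, 5169 and 2839 in Trf2-/- mice. It fell from 319 ± 2.63 to 207 ± 23.5 CPM (SD, n = 3 each), or -0.63 as log2 fold change (SE 0.08, adjusted p = 0.000703 from edgeR). Gm14244 was second at 117 CPM per kilobase and had 326, 286 and 262 CPM in WT and 278, 268 and 272 CPM in Trf2-/- mice, ranges that overlap (log2 fold change -0.10, SE 0.07, adjusted p = 0.343 from edgeR). The 3 next in level fell. They were Gm5918 (95.7 CPM per kilobase, log2 fold change -0.58, SE 0.08), 4930403D09Rik inside the Rac activator gene Dock2 (64.3 CPM per kilobase, -0.71, SE 0.16) and 1700013G23Rik (54.7 CPM per kilobase, -0.65, SE 0.08). Gm11657, inside the protein kinase C gene Prkca, was sixth at 43.8 CPM per kilobase, and its log2 fold change of -0.22 did not pass (SE 0.09, adjusted p = 0.0992 from edgeR).

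The 3 members found on lists of known long non-coding RNAs did not pass the test. F630028O10Rik, whose exons hold Mir223 on the same strand, is on none of these lists and was higher. Snhg3, host of small nucleolar RNAs, had 18.1 to 21.6 CPM over the 6 mice and a log2 fold change of -0.13 (SE 0.08). Nespas, the imprinted antisense RNA of the Gnas locus, had 41.3 to 51.2 CPM in WT and 47.6 to 55.1 CPM in Trf2-/- mice (log2 fold change 0.14, SE 0.09). Gnas had a log2 fold change of 0.22, and the difference between Nespas and Gnas was not tested. Dnm3os, a microRNA host inside the dynamin gene Dnm3, had 13.2 to 14.6 CPM in WT and 15.3 to 19.2 CPM in Trf2-/- mice, which do not overlap, and a log2 fold change of 0.30 that lay at the threshold (SE 0.10, adjusted p = 0.0508 from edgeR). In 4 lists of known long non-coding RNAs, of which the snoRNA host, imprinted and microRNA host lists each hold 1 of these members and the nuclear or structural list holds 0, the tested genes were 0 lower (0 at an unadjusted p under 0.05 in edgeR, and 0 with DESeq2) and 2 higher of 9 snoRNA hosts, 2 lower and 3 higher of 8 imprinted or X-inactivation RNAs, 1 lower and 3 higher of 5 microRNA hosts, and 1 lower and 2 higher of 7 nuclear or structural RNAs. Their medians were 0.22, 0.38, 0.25 and -0.01 on the log2 scale.

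Members were also counted by name and biotype. Names of the 1700 and 49 Rik series go back to RIKEN cDNA libraries made largely from testis. Of 38 members so named 26 were lower (68.4%), 0 were higher with edgeR (0 at an unadjusted p under 0.05, and 0 with DESeq2), and 11 were at least 2-fold lower, with a median log2 fold change of -0.68. Of 42 members with other Rik names 8 were lower and 3 higher (median -0.03), of 94 Gm members 32 were lower and 2 higher (median -0.26), and of 27 others 6 were lower and 1 higher (median -0.02). Antisense members were lower in 61 of 153 cases and higher in 3 (median -0.35), and processed_transcript members lower in 11 of 48 and higher in 3 (median -0.001). These shares stand beside 20.2% lower and 11.2% higher among all tested genes, and the differences between classes were not tested.

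In length and level the lower members and the rest had different medians. For the lower members the median exonic length was 987 bases and the median level 5.74 CPM per kilobase, against 1247 bases and 3.19 CPM per kilobase in the other 129 members. Both had a median of 3 exons, where all tested genes had 8. The level thus moved with the call, and its part in the call was not tested. By RefSeq entries of GRCm38.p6 matched on symbol, 35 of 88 long non-coding members and 35 of 100 unmatched members were lower. Of 12 members that RefSeq lists as protein-coding, 2 were lower and 1 higher. On the X chromosome 0 of 8 members were lower with edgeR (0 at an unadjusted p under 0.05, and 0 with DESeq2) and 2 were higher, beside 20.2% lower and 11.2% higher among all tested genes.

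**Figure D3:**
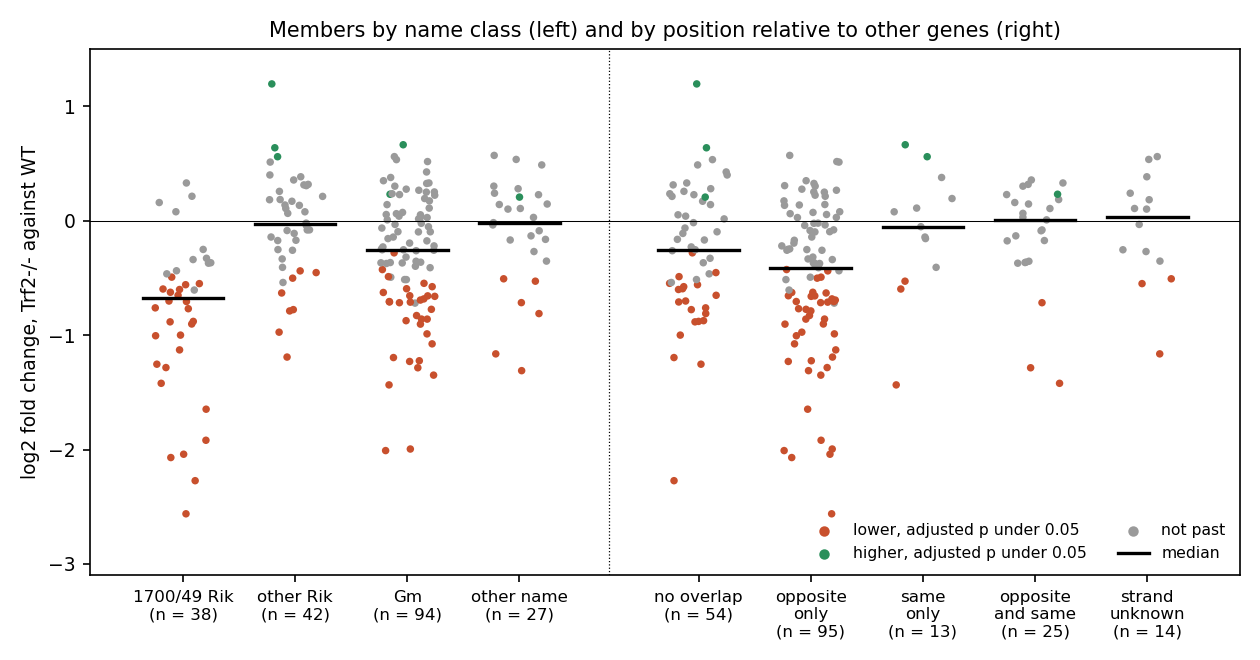
Log2 fold change of Trf2-/- against WT (vertical axis) for each of the 201 members, grouped by name class on the left and by position relative to other genes on the right, with the median of each group as a line. Orange points are lower and green points higher at an adjusted p under 0.05. The 38 members of the 1700 and 49 Rik series have a median of -0.68, and the other name classes medians of -0.03, -0.26 and -0.02.

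Because most members lie in or across another gene, their counts were examined by position. No other gene of the table overlapped 54 members, 95 overlapped only genes of the opposite strand, 13 only genes of the same strand and 25 both, and for 14 the strand was unknown. Lower members were 21 of 54, 42 of 95, 3 of 13, 3 of 25 and 3 of 14 in that order, with medians of -0.26, -0.41, -0.05, 0.01 and 0.04, and 20.2% of all tested genes were lower. Of the 54, 3 were at least 2-fold lower and 1 at least 2-fold higher, against 4.3% and 0.609% of all tested genes. Exons were also compared with every gene of the annotation, including small RNA genes that the table does not list. By that measure 77 members share no exonic base, of which 34 were lower, 3 higher and 10 at least 2-fold lower. They comprise 49 of the 54 and 28 members that overlap a gene of the table outside its exons. F630028O10Rik is not among the 77, because its exons hold the 110 bases annotated as Mir223 on the same strand. The files also bear on whether the counts keep strands apart. Of 95 genes lying wholly inside exons of the opposite strand, 30 had at least 10 counts, up to 3507 in Pdcd2, against 1 of 116 genes wholly inside exons of the same strand, with 26 counts. Counts were thus present where exons of opposite strands coincide and nearly absent where exons of 1 strand coincide. The strand setting of the counting is not given in the sources used here.

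For 126 members an overlapping gene was tested, giving 122 distinct partners. Of 41 lower members in such pairs, 12 had a partner that was also lower, 5 had one that was higher and 24 one that did not pass, beside 20.2% lower and 11.2% higher among all tested genes. Of 3 higher members 2 had a higher partner, and all 3 lay on the same strand as their partner. Of 82 members that did not pass, 21 had a lower and 8 a higher partner. The 14 pairs that moved the same way fell to 6 without WT mouse 1 and 7 without WT mouse 2. Across pairs the log2 fold changes had a Pearson r of 0.27 and a Spearman rho of 0.15, a description of pairs that share libraries and, for 4 partners, the partner. Over 98 pairs on opposite strands alone r was 0.28 and rho 0.13. The 5 with a higher partner were 4932702P03Rik with Aldh5a1, Gm12925 with Macf1, Gm12841 with Atp6v0b, B230398E01Rik with Rfx5 and 4930564K09Rik with Lrat.

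Some members start close to the start of a gene on the opposite strand, either back to back or with their first parts overlapping. For example, 1700108N11Rik and Ovol2 start 687 bases apart and share 688 bases. The 2 arrangements were not counted apart. Of 187 members with a strand, 82 had a gene on the opposite strand starting within 1000 bases. Of the 33 lower ones, 16 had a neighbour that was also lower, 3 one that was higher and 14 one that did not pass. Of the 48 that did not pass, 12 had a lower and 7 a higher neighbour, 26 one that did not pass and 3 one that was not tested. Both counts stand beside 20.2% lower and 11.2% higher among all tested genes. The difference between these counts was not tested, and some neighbours are the overlapping partners above.

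Several such pairs illustrate the range. Gm15489 and Plk1, the mitotic polo-like kinase gene, start 36 bases apart and had log2 fold changes of -0.99 (adjusted p = 0.00600 from edgeR) and -0.90 (adjusted p = 0.00144 from edgeR). 4930555J06Rik and the GTPase gene Arl4a had -0.70 and -0.70, and 1700013G23Rik and the Mediator subunit gene Med9 had -0.65 and -0.25, all past the test. Others moved alone or in opposite directions. 1700122E12Rik had 229, 189 and 151 counts in WT and 81, 113 and 49 in Trf2-/- mice (log2 fold change -0.999, SE 0.18), while the chaperone gene Calr, which starts 254 bases away, had 0.08 (adjusted p = 0.214 from edgeR). BC048644 had 925, 799 and 627 counts in WT and 483, 422 and 307 in Trf2-/- mice (log2 fold change -0.72, SE 0.07, adjusted p = 0.000331 from edgeR), whereas the amino acid transporter gene Slc7a5, starting 139 bases away, rose by 0.27 on the log2 scale (adjusted p = 0.0119 from edgeR). Conversely Lpcat2b, which starts 361 bases from Gm17202, had a log2 fold change of -4.39 at 85 counts in all, and Gm17202 had -0.32 (adjusted p = 0.294 from edgeR). These pairs were chosen after their values were seen.

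**Figure D4:**
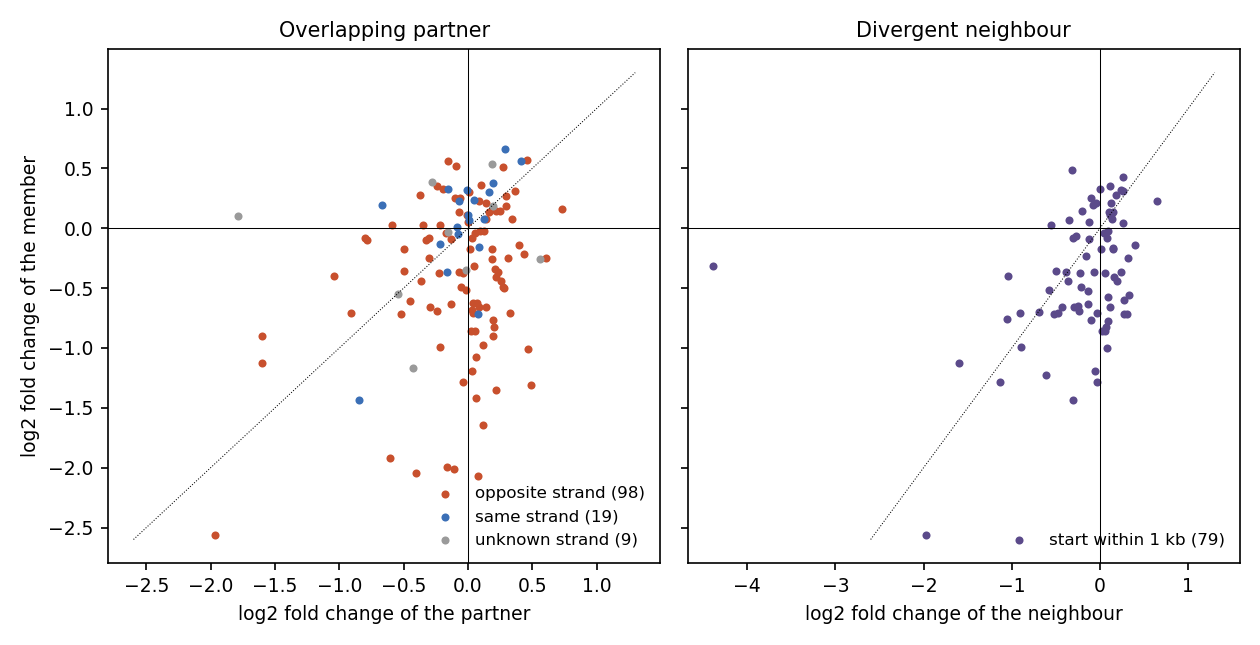
Log2 fold change of each member (vertical axis) against that of its overlapping partner (left, 126 pairs, coloured by relative strand) and of the tested gene starting within 1000 bases on the opposite strand (right, 79 pairs). The dotted line marks equal change. In the left panel most lower members lie below the line near a partner change of 0. Among partners on the opposite strand, Ovol2 and Kcnmb4 lie farthest to the left.

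An antisense entry named Eif2c2 was chosen outside the rules for named genes. This 841-base gene (chr15:72926274-72927114), which has no strand in the annotation used, lies inside Chrac1. It had 79, 82 and 60 counts in WT and 72, 77 and 52 in Trf2-/- mice, and its levels of 2.75 to 3.14 CPM in WT and 2.86 to 3.30 CPM in Trf2-/- mice overlapped (log2 fold change 0.10, SE 0.15). Chrac1 itself had a log2 fold change of -1.79 (SE 0.07). The protein-coding gene Eif2c2, an Argonaute gene, is a separate entry of the table and was not used for it.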

How the data were processed

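Strand-specific RNA-seq libraries were made from total testis RNA of 3 WT and 3 Trf2-/- mice, 1 per mouse. The submitters' processing notes list CASAVA 1.8.2, TopHat2 2.0.10, Bowtie2 2.1.0, HTSeq 0.5.4p3, DESeq2 1.0.19 and the build mm9. The authors deposited raw counts per gene for each mouse, without normalization. The same table holds 12 columns of normalized values, which were not used. The annotation release and strand setting of the counting are not given in the sources used here.

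Counts of all genes were fitted with edgeR 4.0.16 (R 4.3.3), using filterByExpr, TMM factors, glmQLFit and glmQLFTest, with Benjamini-Hochberg adjustment over 16924 genes. A call required an adjusted p under 0.05, and for a decrease or increase of at least 2-fold also a log2 fold change of 1 in size. The SE was derived from the log2 fold change and the F statistic. Methods were tested on simulated counts. The depth of 15187062 to 29859347 counts per mouse sets the precision of members with few counts. The labels give replicate numbers without pairing, and correlations of same-numbered mice were -0.10, -0.03 and -0.10, so the numbers were not used to pair mice.

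Strands, exons and promoter windows came from GENCODE vM1 on NCBIM37, in which 26200 of 26743 genes, and 185 of 201 members, had the table's coordinates. Named genes were the 10 members with the largest decreases, the 6 with an increase, all past the adjusted p without overlap between genotypes, the 6 with the highest level per kilobase, members of known RNA lists, and their partners. Others are marked where they appear. Where several genes overlapped a member, 1 tested partner was used. The members and lists were chosen with earlier results of these data known. Replicates of a genotype differed by 3.32 to 10.3 times the sampling noise (chi-square per degree of freedom), so no library was counted as a repeat. The alternatives were DESeq2's size factors, library size alone, the Wald test of DESeq2 1.42.0, other filters and member limits, the replicate block, each mouse left out, and other definitions of overlap.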

Additional observations from a re-analysis of the deposited data

How the results depend on the processing

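Of 296 values of the 25 named members under the alternatives, 280 kept their direction and their side of the threshold, and 0 reversed. The 13 that lost significance belonged to Tmem134, A630077J23Rik, Gm17024 and 3632454L22Rik, and the 3 that gained it to Dnm3os. Scaling by library size alone gave 20 higher members and a median log2 fold change of -0.16. A limit of 100 counts gave 2 members called up and a median of -0.17. A limit of 500 counts gave 15 called down, 0 called up and 9 pairs that moved the same way, from 118 members. The 54 members that overlap no other gene of the table gave 3 called down, 21 lower and 3 higher. The 77 that share no exonic base with any annotated gene, small RNA genes included, a choice added after seeing the data, gave 10 called down, 0 called up, 34 lower, 3 higher and a median of -0.33. Pairs that moved the same way numbered 9 with opposite-strand partners only and 7 with an overlap of at least 50% of the member. With 1 mouse left out, members called down ranged from 20 to 29, lower members from 49 to 68, higher members from 3 (without WT mouse 2, and without WT mouse 3) to 8, the median from -0.31 to -0.20, and pairs that moved the same way from 6 (without WT mouse 1) to 16. With the replicate block, 24 members were called down, 1 up, 64 lower and 7 higher, with a median of -0.26 and 14 same-way pairs. The numbers do not pair the mice, and no mouse correlated best with the mouse of its own number. Depth limited the decreases of members with 2 to 5 counts in Trf2-/- mouse 3.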

Other observations

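BC018473, an antisense member on chromosome 11, had the largest standard error of the log2 fold change among the 201 members. Its counts were 137, 98 and 42 in WT and 219, 60 and 71 in Trf2-/- mice, with a log2 fold change of 0.57 (SE 0.43, adjusted p = 0.332 from edgeR), and its genotypes overlapped. The cause of its spread was not tested.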
